A study of Mus musculus with 8 samples.

Results

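Ttc30b and 9 further subunits of the intraflagellar transport (IFT) machinery were followed in osteoblasts, which form bone, 8 weeks after treatment with doxorubicin, a DNA-damaging chemotherapy drug of the anthracycline class. The 10 genes were taken by symbol from the 21154 genes of the count table: Ttc30b, Ift20, Ift46, Ift52, Ift74, Ift80, Ift81, Ift88, Ift140 and Ift172. Ttc30b was selected on these same libraries, where it stood among the genes with the clearest excess in doxorubicin over PBS. The difference between the groups is therefore given for all 10 genes as a description; counts of calls over all genes stand beside it as background, and nothing about the 10 genes is supported with them. The difference between batches, which the selection did not use, and the dependence of the doxorubicin difference on batch were tested. A clear excess over all libraries favours like differences in both batches, so for Ttc30b the second is not independent of the selection.

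The mice of both groups were females carrying Col2.3-GFP, a transgene in which a fragment of the Col1a1 promoter drives green fluorescent protein (GFP). They were 8 to 10 weeks old at treatment and received 4 weekly intravenous injections. The PBS group (3 libraries) received phosphate-buffered saline, and the DOX group (5 libraries) received doxorubicin at 5 mg/kg per injection. The sort took GFP-positive cells from digested bone chips, so a library holds the cells in which that promoter fragment is active, and the labels do not say whether animals were pooled. PBS replicate 1 and the DOX libraries 1 and 2 came from batch 1, and the other 5 libraries from batch 2. DOX replicate 1 is titled DOX but carries a treatment tag of PBS. It was counted by its title, and values are also given for the 10 genes with this library left out or moved to the PBS group.

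Intraflagellar transport carries cargo along the microtubules of the cilium, the antenna-like projection that most vertebrate cells, osteoblasts included, can build. The IFT-B complex travels with kinesin towards the tip, and the IFT-A complex serves the return with dynein and the entry of membrane proteins. Hedgehog signalling in vertebrates runs through the cilium, and mutations in IFT genes cause skeletal ciliopathies. Ttc30b encodes a tetratricopeptide-repeat subunit of IFT-B, a mouse counterpart of the protein called IFT70 in other species. Ift20, Ift46, Ift52, Ift74, Ift80, Ift81, Ift88 and Ift172 also encode IFT-B subunits, and Ift140 encodes a core subunit of IFT-A.

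The mouse genome holds near-identical copies of Ttc30b. Ttc30a2 and Ttc30a1 are its neighbours on chromosome 2 in RefSeq's order of genes. The coding sequences of all 3 are 1992 bases long in GENCODE M21 (GRCm38), and Ttc30b matched Ttc30a1 at 94.9% of positions (102 mismatches) and Ttc30a2 at 94.9% (101 mismatches). The longest stretch without a mismatch was 212 bases against Ttc30a1 and 226 bases against Ttc30a2. Coding bases 1165 to 1224 are printed because they show differences by which a read can be assigned to 1 of the 3 genes. They were chosen as the first window of 60 bases with the most mismatches between Ttc30b and Ttc30a1, and so are not typical of the coding sequence. Capitals mark the positions that are not the same in all 3.
Ttc30b: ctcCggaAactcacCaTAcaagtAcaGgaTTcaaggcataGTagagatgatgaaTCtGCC
Ttc30a1: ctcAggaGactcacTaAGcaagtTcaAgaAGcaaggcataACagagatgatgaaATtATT
Ttc30a2: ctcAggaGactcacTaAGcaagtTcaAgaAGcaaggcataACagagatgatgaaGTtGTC
In this window Ttc30a1 differs from Ttc30b at 16 of 60 positions and Ttc30a2 at 14. Over the whole Ttc30b transcript, 34.8% of all 50-base windows and 19.1% of all 100-base windows also occurred in another gene, in each case Ttc30a1 or Ttc30a2. For the other 9 IFT genes these shares were at most 1.58% and 0.0312%. Neither the read length nor the treatment of multi-mapping reads is given in the sources used here, so the counts of Ttc30b are uncertain in a way that those of the other 9 are not.

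Each library held between 39419027 and 44299591 counts, and all 10 IFT genes were among the 15373 genes that passed the filter on low counts. The osteoblast markers Col1a1, Col1a2, Bglap, Ibsp, Alpl, Sp7, Runx2, Phex and Dmp1 summed to 175000 to 522800 CPM (counts scaled to a common library size with TMM factors) in PBS and to 211800 to 414700 CPM in DOX. PBS replicate 1 and DOX replicate 1 stood apart, with the lowest shares of Col1a1 and Col1a2 (19.1% and 23.2% of counts, against 26.0% to 39.5% elsewhere). They also had the highest erythroid marker sums (155 and 109.5 CPM over 7 genes, against 2.32 to 38.3 CPM). The 10 IFT genes together took 0.0209% to 0.0470% of counts. P-values measure the spread between these libraries, which the titles call biological replicates.

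Ttc30b was higher in every DOX library than in every PBS library. It stood at 4.73, 6.46 and 6.03 CPM in PBS replicates 1 to 3 (252, 237 and 213 counts). In DOX replicates 1 to 5 it stood at 8.35, 9.73, 10.9, 9.65 and 8.33 CPM (413, 392, 444, 418 and 345 counts). The group means were 5.74 ± 0.901 CPM (SD, n = 3) and 9.40 ± 1.09 CPM (SD, n = 5). The lowest DOX library lay above the highest PBS library, and the groups did not overlap. The log2 fold change was 0.73 ± 0.18 (SE), with a 95% interval of 0.33 to 1.13. Ttc30b was selected on this contrast, so the interval does not have its stated coverage and is no test. The log2 fold change was 0.92 within batch 1, which has a single PBS library, and 0.61 within batch 2. With DOX replicate 1 left out it was 0.75, and with that library counted as PBS it was 0.60. Groups that do not overlap were found for 1 of the 10 IFT genes, Ttc30b itself. Over all genes tested, 190 of 15373 (1.24%) had all DOX libraries above all PBS libraries and 183 (1.19%) had all of them below.

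Sorted by p among the genes higher in DOX, Ttc30b was at rank 14, between Trpc6 (log2 fold change 1.12) and Apod (2.20); this rank restates how it was selected. No gene was called, meaning an adjusted p under 0.05, between DOX and PBS by edgeR's quasi-likelihood test: 0 of 15373 genes (0%) and 0 of the 10 IFT genes. At an unadjusted p under 0.05 the same test listed 571 genes (3.71%), 1 of them an IFT gene, Ttc30b, which its selection had fixed. DESeq2 called 26 of the 21139 genes for which it gave an adjusted p (0.123%), none of them an IFT gene, and limma-voom called 0.

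The paralog Ttc30a1 had a fold change of the opposite sign. It had 320, 134 and 132 counts in PBS replicates 1 to 3 and 107, 169, 132, 156 and 105 in DOX replicates 1 to 5. Its means were 4.47 ± 1.34 CPM (SD, n = 3) and 3.15 ± 0.815 CPM (SD, n = 5), with a log2 fold change of -0.50 ± 0.29 (SE). PBS replicate 1 was its highest library, and without that library the value was -0.23. It was -0.33 without DOX replicate 1 and -0.14 with that library counted as PBS. Ttc30a2 had at most 6 counts in any library and did not pass the filter. Of the counts of the 3 genes, Ttc30b took 43.8% in PBS replicate 1 (95% Wilson interval 39.8% to 47.8%), 63.9% in PBS replicate 2 (58.9% to 68.6%) and 61.7% in PBS replicate 3 (56.5% to 66.7%). In DOX replicates 1 to 5 its share was 79.4%, 69.9%, 76.3%, 72.6% and 76.7%, and the lowest Wilson bound among them was 65.95%. Shares in DOX (75.0 ± 3.75%, SD, n = 5) were all above those in PBS (56.5 ± 11.1%, SD, n = 3). Ttc30b was selected for its excess in DOX, so this separation in part restates the selection and is a description only. These intervals cover counting error only, since no molecular identifiers are named.

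Summed over the 3 paralogs, the groups overlapped. The sum was 10.8, 10.1 and 9.77 CPM in PBS replicates 1 to 3, and 10.5, 13.9, 14.3, 13.3 and 10.9 CPM in DOX replicates 1 to 5. DOX replicate 1 lay below PBS replicate 1 on this sum. The means were 10.2 ± 0.534 CPM and 12.6 ± 1.78 CPM, and the log2 fold change of the sum was 0.30 ± 0.16 (SE), against 0.73 for Ttc30b alone. How reads were divided among the copies was not tested.

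**Figure D1:**
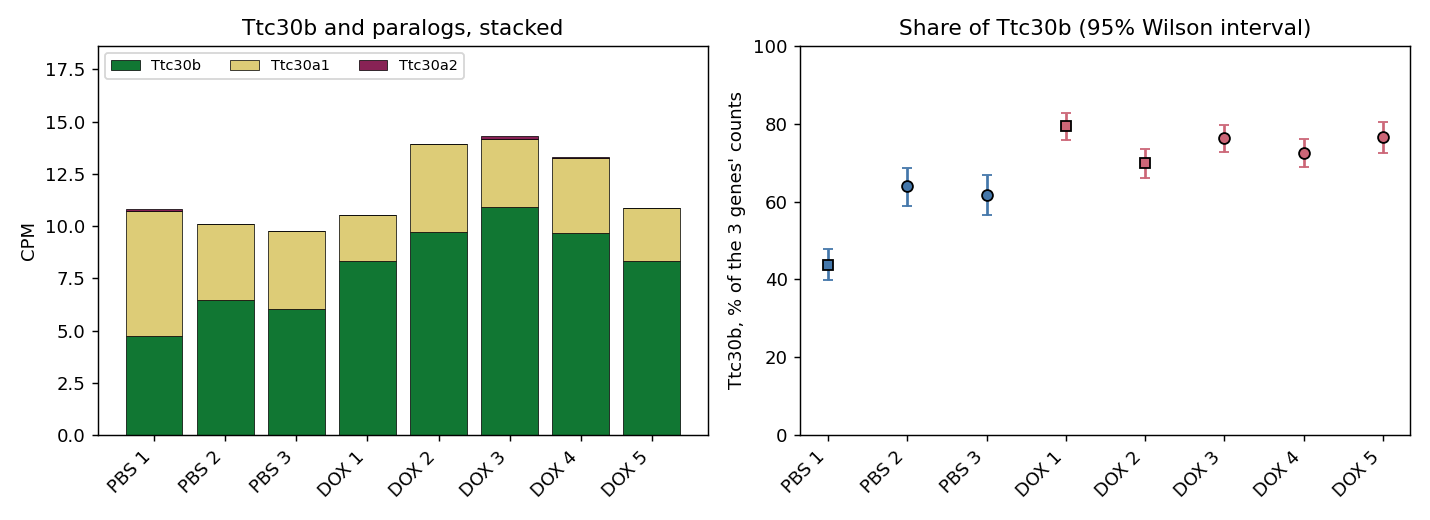
Left, CPM (linear axis from 0) of Ttc30b, Ttc30a1 and Ttc30a2 stacked for each of the 8 libraries; right, the share of Ttc30b among the counts of the 3 genes (percent, points with 95% Wilson intervals for counting error; squares are batch 1 and circles batch 2, blue PBS and red DOX). The share runs from 43.8% to 63.9% in PBS and from 69.9% to 79.4% in DOX, while the stacked heights run from 9.77 to 10.8 CPM in PBS and from 10.5 to 14.3 CPM in DOX.

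The remaining IFT-B core subunits showed no like separation. Ift52, which ties the inner core of IFT-B together, stood at 24.0, 27.8 and 32.2 CPM in PBS and at 30.3, 27.0, 31.1, 30.8 and 31.5 CPM in DOX. All 5 DOX values lay within the range of the PBS values. Its means were 28.0 ± 4.09 CPM (SD, n = 3) and 30.1 ± 1.80 CPM (SD, n = 5), with a log2 fold change of 0.13 ± 0.12 (SE). Ift46, which helps to bring outer-arm dynein into cilia, stood at 40.0, 41.9 and 51.8 CPM in PBS and at 34.7, 47.5, 27.1, 29.8 and 40.7 CPM in DOX. DOX replicates 1, 3 and 4 lay below all PBS libraries and the other two within their range. Its log2 fold change was -0.33 ± 0.19 (SE), from 0.02 within batch 1 and -0.54 within batch 2. Ift88, the gene altered in the Oak Ridge polycystic kidney mouse, had the fewest counts of the 10 (64 to 171 per library) and the widest spread, 31.1% as the coefficient of variation over the 8 libraries. It stood at 1.99 to 2.59 CPM in PBS and 1.58 to 3.95 CPM in DOX, and the highest value was that of DOX replicate 4. Its log2 fold change was 0.17 ± 0.36 (SE), and -0.06 without that library.

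Ift74 and Ift81 encode the paired coiled-coil subunits whose N-terminal parts bind tubulin. Ift74 stood at 13.6 to 17.5 CPM in PBS and 13.4 to 19.7 CPM in DOX, and Ift81 at 8.49 to 10.3 CPM and 7.98 to 12.2 CPM. Both genes overlapped fully between the groups, with log2 fold changes of 0.04 ± 0.18 (SE) and 0.09 ± 0.18.

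The peripheral IFT-B subunits link the train to the kinesin motor and to membrane cargo. Ift20, which also works at the Golgi apparatus in sorting proteins towards the cilium, stood at 136, 112 and 126 CPM in PBS. In DOX it stood at 239.5 CPM in DOX replicate 1 and at 107, 128, 165 and 151 CPM in DOX replicates 2 to 5. The value of DOX replicate 1, the library with conflicting labels, was the highest and that of DOX replicate 2 the lowest of all 8. The log2 fold change was 0.33 ± 0.23 (SE). It was 0.12 without DOX replicate 1, -0.07 with that library counted as PBS, and 0.32 in batch 2 alone, which does not hold it. Ift80, mutated in a form of Jeune thoracic dystrophy, stood at 6.68 to 10.4 CPM in PBS and 7.56 to 10.1 CPM in DOX (log2 fold change -0.01 ± 0.19, SE). Ift172, the largest IFT-B subunit, stood at 13.4, 18.6 and 21.5 CPM in PBS and at 13.5, 19.9, 18.6, 19.3 and 12.7 CPM in DOX, with low values in both groups and a log2 fold change of -0.05 ± 0.20 (SE).

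Ift140, the IFT-A subunit among the 10, stood at 15.0, 12.0 and 16.0 CPM in PBS and at 12.0, 12.0, 12.6, 10.1 and 11.3 CPM in DOX. PBS replicates 1 and 3 lay above all DOX libraries, and PBS replicate 2 lay among them. The means were 14.4 ± 2.10 CPM (SD, n = 3) and 11.6 ± 0.986 CPM (SD, n = 5), with a log2 fold change of -0.32 ± 0.15 (SE), an interval of -0.65 to 0.02 and like values within batch 1 (-0.33) and batch 2 (-0.30). Of the 10 IFT genes 6 had a fitted log2 fold change above 0 and 4 below, with a median of 0.06. Over all genes tested 8145 (53%) were above 0, with a median of 0.02. Under scaling by total counts alone the median of all genes was 0.11 and that of the 10 IFT genes 0.15, with 8 of 10 above 0. Ift172 then had a value of 0.03.

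Without DOX replicate 1 the log2 fold change was -0.30 for Ift46, 0.09 for Ift52, -0.03 for Ift74, 0.06 for Ift80, 0.13 for Ift81, 0.30 for Ift88, -0.32 for Ift140 and -0.01 for Ift172. With that library counted as PBS the same 8 values were -0.21, 0.03, -0.08, 0.11, 0.15, 0.36, -0.27 and 0.04. The sign of Ift74 and Ift80 thus turned under both settings, and that of Ift20 and Ift172 under the second.

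**Figure D2:**
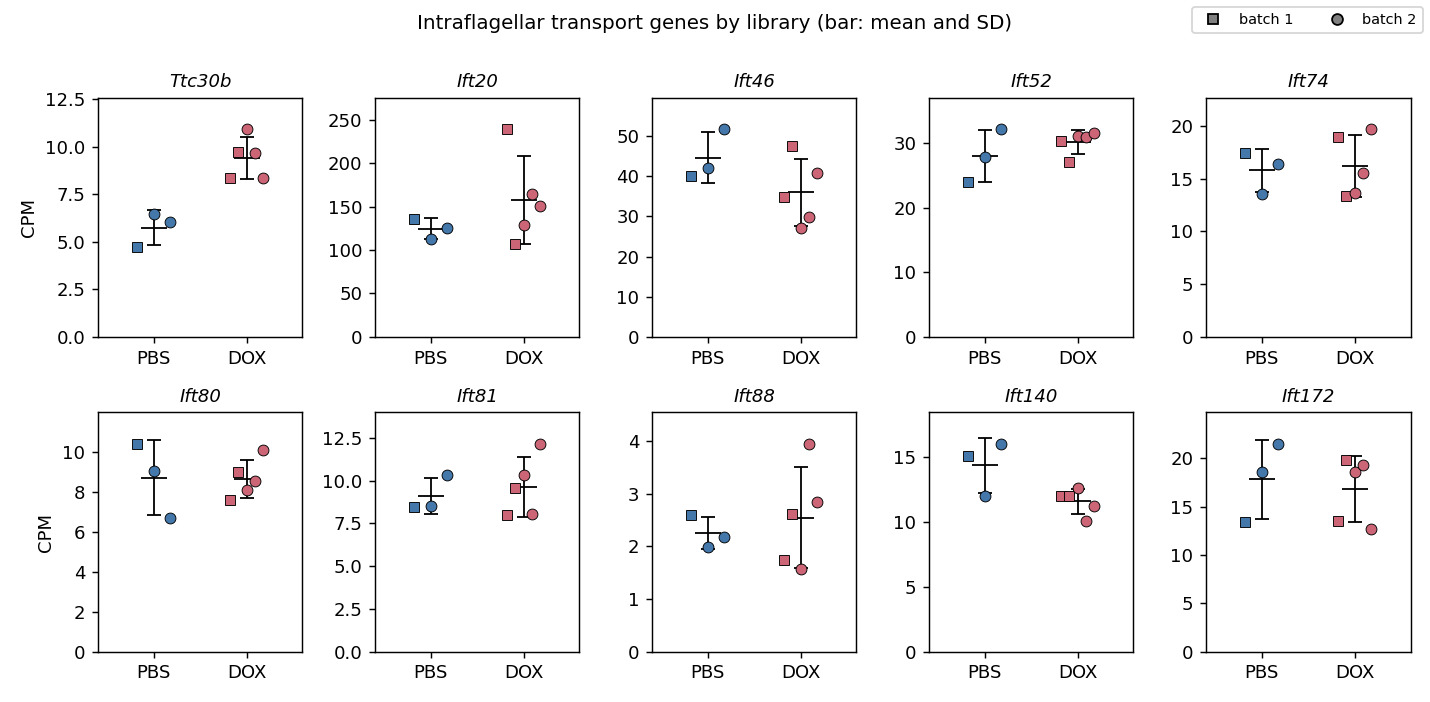
CPM (linear axes from 0, one scale per gene) of the 10 IFT genes in the 3 PBS and 5 DOX libraries; squares are batch 1, circles batch 2, and the bars give the mean and SD. The groups are apart for Ttc30b (4.73 to 6.46 CPM against 8.33 to 10.9 CPM) and overlap for the other 9 genes.

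The level per length set Ift20 far above the other subunits. Per kilobase of annotated exon (all transcripts of a gene in GENCODE M21), the mean over the 8 libraries was 95.4 CPM per kb for Ift20, with libraries from 69.9 to 157. Ift52 followed at 10.5 (8.56 to 11.5), then Ift46 at 6.11 (4.22 to 8.07) and Ift74 at 6.05 (5.04 to 7.43). Ttc30b stood at 2.93 (1.73 to 3.99) and Ift172 at 2.60 (1.91 to 3.25). Ift81 at 1.62 (1.37 to 2.08), Ift140 at 1.51 (1.21 to 1.92), Ift80 at 0.698 (0.538 to 0.837) and Ift88 at 0.526 (0.340 to 0.853) closed the order. The libraries' ranges did not overlap between Ift20 and Ift52, between Ift52 and Ift46, between Ift74 and Ttc30b, or between Ift140 and Ift80. Neighbours in the other 5 places of the order overlapped. Annotated exon bases ran up to 12428 (Ift80), and which transcripts osteoblasts use was not tested. Of the 50-base windows of Ttc30b, 34.8% also occur in Ttc30a1 or Ttc30a2. Reads from them may be uncounted or misassigned, so the level of Ttc30b and its separation from Ift74 are uncertain.

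Between the batches, which the selection of Ttc30b did not use, none of the 10 IFT genes was called by edgeR's quasi-likelihood test. Over all genes 5 of 15373 (0.0325%) were called higher in batch 2 and 9 (0.0585%) lower. None of the 10 IFT genes had an unadjusted p under 0.05 in this test, against 2246 of all genes. Ttc30b differed by 0.20 ± 0.18 (SE, log2, batch 2 minus batch 1), with means of 7.60 ± 2.58 CPM (SD, n = 3) and 8.28 ± 2.08 CPM (SD, n = 5) and an adjusted p of 0.621. The 10 adjusted p-values ran from 0.468 for Ift52 (0.19 ± 0.12) to 0.907 for Ift88 (0.11 ± 0.36), and 5 of the 10 lay below 0, as did 7932 of all genes (51.6%). Whether the DOX difference depended on batch was tested by the interaction of group and batch in edgeR, which called 0 of 15373 genes (0%), with 1806 at an unadjusted p under 0.05 and 269 called by DESeq2. No IFT gene was called, and none had an unadjusted p under 0.05. The difference between batches in the DOX effect was -0.31 ± 0.36 (SE) for Ttc30b (adjusted p = 0.786), 0.51 ± 0.37 for Ift80 (adjusted p = 0.631), -0.56 ± 0.36 for Ift46 (adjusted p = 0.583) and -0.56 ± 0.39 for Ift172 (adjusted p = 0.623). With a single PBS library in batch 1, these intervals are wide. Selection of Ttc30b on its excess over both batches favours a small interaction, so its value here is a description.

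The other subunits of the 2 complexes were described from lists of known members. Of the 8 other IFT-B genes tested, 6 were above 0 and 2 below, with a median log2 fold change of 0.16. Ttc26, the IFT56 subunit, had the highest value, 0.31 ± 0.24 (SE), and Ttc30a1 the lowest. Hspb11 (IFT25), its partner Ift27, a small GTPase, Traf3ip1 (IFT54) and Ift22 lay between 0.16 and 0.18, Cluap1 (IFT38) was at 0.04 and Ift57 at -0.02. Of the 6 other IFT-A genes, 3 were above 0 and 3 below, with a median of -0.02. Ift43 was at 0.20 ± 0.13 (SE), Ift122 at 0.03, Ttc21b (IFT139) at 0.02, Wdr19 (IFT144) at -0.06, Wdr35 (IFT121) at -0.13 and Tulp3, which binds IFT-A and brings membrane receptors into cilia, at -0.33 ± 0.31. None was called in edgeR, in DESeq2 or between the batches, none had an unadjusted p under 0.05 between DOX and PBS, and in no case were the groups apart. Between the batches 1 of these 14 genes had an unadjusted p under 0.05 in edgeR. This was Ift57, at 16.7 ± 1.43 CPM in batch 1 (SD, n = 3) and 26.1 ± 2.25 CPM in batch 2 (SD, n = 5), with an adjusted p of 0.106.

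**Figure D3:**
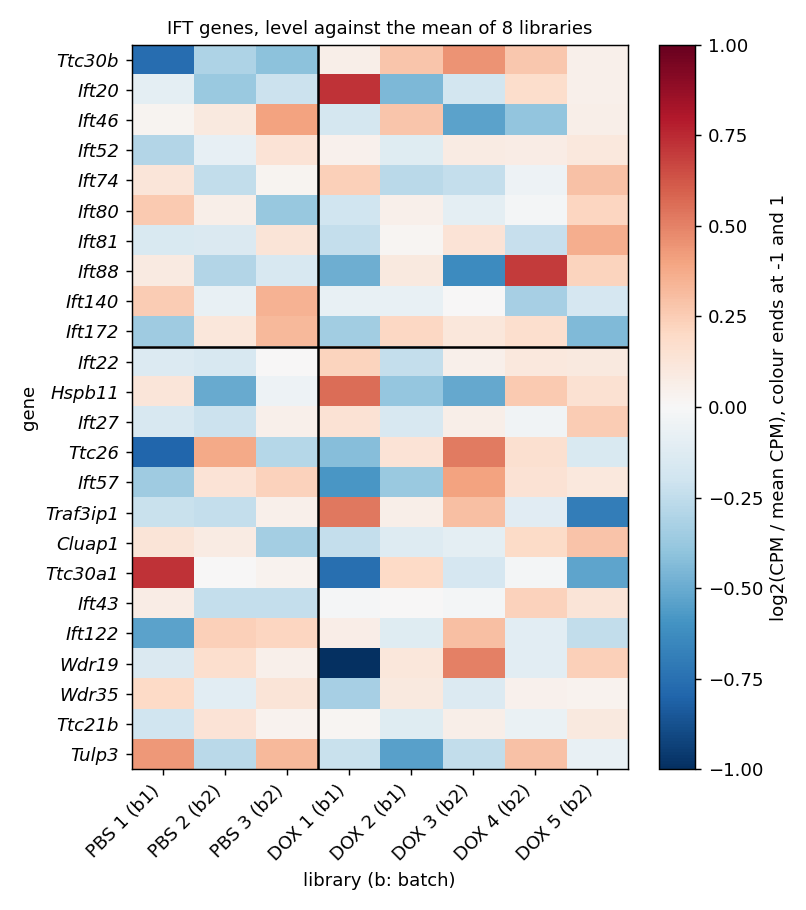
Level of each IFT gene in each library relative to that gene's mean over the 8 libraries (log2 of the ratio of CPM values, colour scale from -1 to 1, lower values in the end colour); the 10 IFT genes described are above the black line and 14 other subunits below it, with b1 and b2 marking the batch. In Ttc30b the 3 PBS libraries are blue and the 5 DOX libraries red, and no other row shows that split; the lowest value, -1.60, is that of Wdr19 in DOX replicate 1.

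Genes of the machinery that works with IFT lay on both sides of 0. Of 11 motor genes tested, 6 were above 0 and 5 below (median 0.04). Dynll1, a dynein light chain, had the highest level (305 CPM), Dynlrb1 the highest log2 fold change (0.19 ± 0.11, SE) and Kifap3, the adaptor of the kinesin-2 motor, the lowest (-0.30 ± 0.13). The BBSome, a coat that moves membrane proteins on IFT trains, had 6 of 10 genes above 0 (median 0.13), from Bbs4 (0.57 ± 0.28) to Bbs9 (-0.36 ± 0.18). Bbip1 had its highest level (24.3 CPM). Of 18 genes of the transition zone, the gate at the base of the cilium, 8 were above 0 (median -0.02), from Cc2d2a (0.40 ± 0.34) to Tmem67 (-0.23 ± 0.19), with Tmem107 the highest in level (19.4 CPM). Of 16 genes of cilium assembly and its control, 7 were above 0 (median -0.05). Rab8a, a GTPase of membrane delivery, was the highest in level (87.8 CPM). At the ends were 2 genes of the RFX factors that switch on ciliary genes, Rfx2 at 1.18 ± 0.96 and Rfx3 at -0.73 ± 0.43. Rfx2 had only 2 to 43 counts per library, with the lowest in DOX replicate 4. Over these ciliary lists together with the other IFT subunits, 36 of 69 genes were above 0 and 33 below, with a median of 0.02, against 0.02 over all genes tested. None of the 69 was called in edgeR or DESeq2, and 1, Kifap3, had an unadjusted p under 0.05.

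Genes of the Hedgehog pathway lay mostly below 0. Of 13 tested, 12 were below 0 and 1 above, with a median log2 fold change of -0.32, where 8145 of all 15373 genes (53%) were above 0. None was called, and 2 had an unadjusted p under 0.05. Gli3, the transcription factor that acts chiefly as the pathway's repressor, had a mean of 18.9 ± 2.25 CPM over the PBS libraries (SD, n = 3) and of 13.7 ± 4.04 CPM over the DOX libraries (SD, n = 5), and its log2 fold change was -0.49 ± 0.21 (SE). Kif7, a kinesin at the ciliary tip that regulates Gli proteins, stood at 11.7 ± 2.33 and 8.02 ± 1.76 CPM, with -0.53 ± 0.23. In both genes 4 of 5 DOX libraries lay below all PBS libraries. The receptor Ptch1 was at -0.12 ± 0.14 (SE), the transducer Smo at -0.23 ± 0.19, the inhibitor Sufu at -0.32 ± 0.18, Gli2 at -0.17 ± 0.32 and Gli1, a direct target of the pathway, at 0.07 ± 0.47. The coreceptors Boc, Cdon and Gas1 were at -0.06 ± 0.21, -0.72 ± 0.58 and -0.01 ± 0.16, and Boc had the highest level (69.6 CPM). Hhip, which binds and sequesters Hedgehog ligands, had the lowest value, -1.58 ± 0.73, at 10 to 230 counts per library. PBS replicate 3 was its highest library (6.51 CPM). DOX replicate 5 (2.15 CPM) lay above PBS replicates 1 and 2, and the other DOX libraries lay below all PBS libraries. How far the Hhip value rests on PBS replicate 3 was not tested. The ligand gene Ihh was at -1.07 ± 1.09 and Gpr161, a ciliary receptor that restrains the pathway, at -1.12 ± 0.72. PBS replicate 1 was the highest library for Ihh (8.06 CPM, against 0.397 to 2.17 CPM elsewhere), Gpr161 (1.78 CPM) and Cdon (4.15 CPM). Of the 7 chondrocyte genes, that library was also the highest for Acan (31.9 CPM), Col10a1 (5.62 CPM), Matn3 (2.72 CPM) and Comp (564 CPM). The others went differently. Col9a1 was at its lowest of the 8 libraries there (3.83 CPM). Col2a1 stood at 2116 CPM there, against 6821 and 7056 CPM in PBS replicates 2 and 3. Sox9 (13.5 CPM) was higher in DOX replicate 5 (17.6 CPM). The part of chondrocytes in the Hedgehog values was not tested. The ligand gene Dhh did not pass the filter. Under scaling by total counts alone 10 of the 13 were below 0, with a median of -0.25. The median was -0.11 with DOX replicate 1 counted as PBS, -0.24 without that library, and -0.20 without PBS replicate 2. Without PBS replicate 1, 10 of the 13 were below 0, with a median of -0.26. Within batch 2, which does not hold PBS replicate 1, Ihh (1.24), Gli1 (0.60) and Gas1 (0.16) were above 0 and the rest below.

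**Figure D4:**
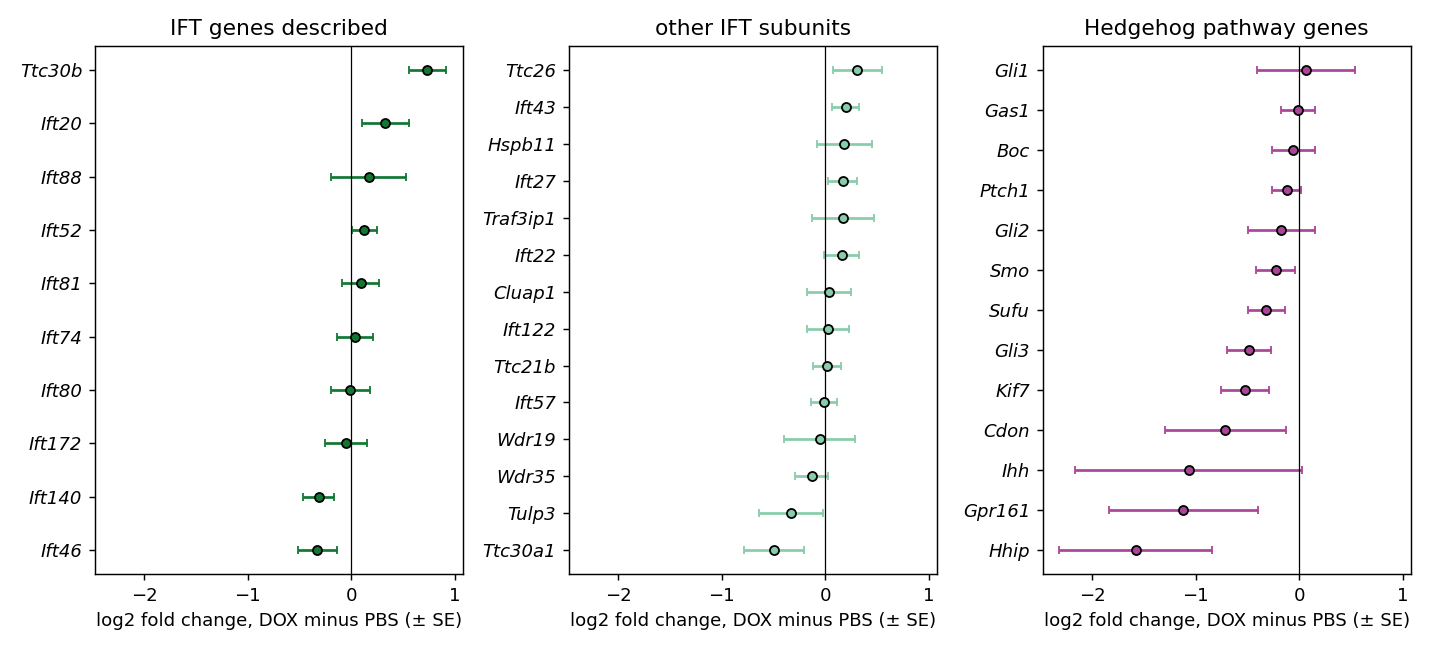
Fitted log2 fold change (DOX minus PBS, points) with its SE (bars) for the 10 IFT genes, the 14 other IFT subunits tested and the 13 Hedgehog pathway genes described, each panel sorted by value. Ttc30b lies at 0.73, the other IFT genes between -0.50 and 0.33, and 12 of 13 Hedgehog genes to the left of 0.

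Genes of motile cilia, which multiciliated cells carry, were at low levels. The 8 such genes in the table summed to 3.21 to 4.05 CPM in PBS and 2.43 to 4.60 CPM in DOX, and 5 of the 8 were under 1 CPM in every library. Foxj1, the master regulator of motile cilia, did not pass the filter. Of the 5 tested, Dnai1 had the highest level (1.19 CPM), Ccdc39 the highest log2 fold change (1.50 ± 0.70, SE) and Cfap43 the lowest (-0.71 ± 0.57).

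Markers of other cells that the sort could hold were measured in the same libraries. Leukocyte markers (9 of 10 in the table) summed to 9.32 to 21.1 CPM in PBS and 7.77 to 42.1 CPM in DOX. Erythroid markers summed to 3.85 to 155 and 2.32 to 109.5 CPM, and endothelial markers to 6.60 to 26.5 and 5.77 to 29.1 CPM. Fibroblast and tendon markers summed to 5863 to 8638 and 6802 to 8915 CPM, of which Dcn, also a product of osteoblasts, made up most, and Thy1 was at 0 counts in all 3 PBS libraries. Chondrocyte markers summed to 2738 to 7183 and 1951 to 5668 CPM. The ranges of these sums overlapped between the groups for all 5 lists. Gene by gene, all 7 erythroid markers had a log2 fold change below 0 (median -0.94, 0 called), and 5 of the 7 were called lower in batch 2 by edgeR. Of the chondrocyte markers, 5 of 6 tested were below 0 (median -0.32, 0 called). Above 0 were 6 of 9 leukocyte markers tested (median 0.11), 2 of 5 endothelial (-0.07) and 6 of 8 fibroblast and tendon markers (0.27). Of the 9 osteoblast markers, 7 were below 0 (median -0.10). Of these lists, 1 gene, Tnmd, a tendon gene, had all DOX libraries above all PBS libraries, with means of 4.02 ± 1.58 CPM (SD, n = 3 PBS) and 12.7 ± 5.91 CPM (SD, n = 5 DOX), and was called by DESeq2 (adjusted p = 0.0265) and not by edgeR. The part of these cell types in the Ttc30b difference was not tested. With PBS replicate 1 and DOX replicate 1, the libraries with the highest erythroid sums, both left out, the Ttc30b log2 fold change was 0.63. In bulk RNA a lower number of cells of a type and less RNA per cell cannot be told apart.

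Library to library, the IFT genes did not move as a group. Over the 45 pairs of the 10 genes, the median Pearson r of log2 CPM across the 8 libraries was 0.01, with 23 pairs above 0 and a mean of -0.04, against a mean of 0.01 over all pairs of the 10696 genes whose mean log2 CPM was 1 or more. Ttc30b had its highest r with Ift52 (0.53) and its lowest with Ift140 (-0.70). With the share of counts taken by Col1a1 and Col1a2, r over the 8 libraries ran from -0.67 for Ift20 and -0.66 for Ift74 to 0.76 for Ift172, and it was 0.16 for Ttc30b. The libraries share scaling, batch and group, so these values describe the 8 libraries. The 5 genes most like Ttc30b among 10244 candidates were Ybey (r = 0.96), which encodes a mitochondrial RNA-processing enzyme, Lactb (0.95), a mitochondrial serine beta-lactamase-like protein, Bcdin3d (0.93), an RNA methyltransferase, Zfp688 (0.92), a zinc-finger gene, and Phf13 (0.91), a chromatin reader. Lactb, for example, averaged 6.88 ± 1.04 CPM over the PBS libraries (SD, n = 3) and 10.5 ± 1.21 CPM over the DOX libraries (SD, n = 5).

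RFX factors bind X-box motifs at many ciliary genes, and the promoters of the IFT genes were searched for that sequence. RefSeq promoter windows of 300 bases (GRCm38.p6, 250 before and 50 after the start) were matched for 7 of the 10 genes. The X-box half-site GTTGCC, read on both strands, was in 3 of the 7, Ift172, Ift88 and Ift140, and in 12.5% of all 32851 windows. The full X-box motif, a pair of half-sites in opposite orientation, was searched only in a single fixed form with a spacer of set length. That form was in 0 of the 7 and in 0.298% of all windows. Motifs with other half-site bases or another spacer length were not searched. Whether the 7 promoters hold such a motif was not tested. The 30 bases around each half-site are printed on the gene's strand, with the half-site in capitals, because they are a sequence feature shared by subunits of both complexes.
Ift172: tgtcgcactcacGTTGCCtgtgcgtcagcg
Ift88: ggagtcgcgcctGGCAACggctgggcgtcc
Ift140: gcgtgttgtgacGGCAACctcgcgcccttg
The stretch of Ift172 is chr5:31291097-31291126 (minus strand), that of Ift88 chr14:57424080-57424109 (plus strand) and that of Ift140 chr17:25015965-25015994 (plus strand). In Ift88 and Ift140 the half-site is on the opposite strand. A match describes these letters and is not a measured binding site.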

How the data were processed

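Messenger RNA of sorted osteoblasts was measured by RNA-seq; per the labels' protocols the library kit was SMART-Seq v4 Plus, and this kit leaves strands unmarked. The deposited values are raw read counts per gene symbol. The submitters' processing notes name STAR 2.7.9a, featureCounts 2.0.1, Trim Galore 0.6.6 and SAMtools 1.17, the quality tools MultiQC 1.7 and FastQC 0.11.5, and the mouse build GRCm39. Neither annotation nor strand setting is given in the sources used here.

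Counts were fitted in R 4.3.3 with edgeR 4.0.16: TMM scaling, filterByExpr, batch and group as terms, two-sided quasi-likelihood tests, and Benjamini-Hochberg adjustment over all 15373 genes tested at a threshold of 0.05. The interaction was a term of a second fit. Standard errors and 95% intervals come from the fold change and its F statistic, CPM values use TMM-scaled library sizes (prior count of 2 on the log2 scale). DESeq2 1.42.0 and limma 3.58.1 (voom with quality weights) were alternatives. The fits were tested on simulated data. Sequences and exon lengths came from GENCODE M21 and RefSeq, both of GRCm38. Figures were made in matplotlib 3.10.9 (Python 3.11.15).

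The members, the gene lists and the tests were chosen with earlier results of these data known. The text names the 10 members, every other IFT subunit, the Hedgehog receptors and Gli genes (1 Hedgehog gene is not reported here), the genes of each further list with the highest level and the highest and lowest fold change, and the 5 genes most correlated with Ttc30b among standard symbols whose mean log2 CPM was 1 or more. Other genes named (Kif7, Sufu, Smo, Ihh, Gpr161, Dhh, Acan, Col10a1, Matn3, Comp, Col9a1, Tnmd, Thy1, Dcn, Foxj1, Trpc6 and Apod) were chosen after their values were seen. No 2 libraries were identical, and their correlations ran from 0.897 to 0.964.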

Additional observations from a re-analysis of the deposited data

Results flagged for a closer look

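Among the 24 tested IFT genes, the DOX values of 1 set a library apart. Ift52 stood at 27.0 CPM in DOX replicate 2, against 30.3 to 31.5 CPM in the other 4 DOX libraries, and the gap to the nearest of them was 0.722 of the group's range (the critical value for 5 libraries is 0.71). Chance sets apart about 1 in 20 such groups, and 24 genes were looked at. The value lies within the range of the PBS libraries.

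In 4 genes the DOX libraries lay on opposite sides of their batch's PBS mean in the 2 batches. The log2 difference of Ift80 was -0.33 in batch 1 and 0.19 in batch 2, and that of Ift172 was 0.29 and -0.27. For Cluap1 it was -0.32 and 0.25, and for Ift43 it was -0.079 and 0.35. All DOX libraries of a batch lay on the given side of its PBS mean, though in batch 2 some lay between the 2 PBS libraries for Ift80, Ift172 and Cluap1. The interaction test in edgeR did not call any of them (adjusted p = 0.631 for Ift80, 0.623 for Ift172, 0.633 for Cluap1 and 0.498 for Ift43). Batch 1 has a single PBS library, so each of its differences rests on that library. How many of all genes tested lie this way was not counted, so the number is a description only.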

How the results depend on the processing

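Ttc30b kept a positive log2 fold change under all settings run, from 0.60 to 0.91 for the gene itself (0.91 in batch 1 alone, 0.63 to 0.80 when 1 library was left out). It was 0.30 for counts summed with Ttc30a1 and Ttc30a2. Ttc30b was selected on this contrast, which largely fixed its sign in advance, so the settings show only how its size varied. The median of the 10 IFT genes ran from -0.04 with the replicate number as a block to 0.15 under scaling by total counts, and 4 to 8 of the 10 were above 0. Genes called between DOX and PBS numbered 0 under all settings except DESeq2 (26) and batch 1 alone (96), where Ttc30b was not among them. Genes called between batches, 14 in the main test, numbered 516 in DESeq2, 5 with DOX replicate 1 counted as PBS, 8 under scaling by total counts, 0 without PBS replicate 1 and DOX replicate 1 together, and 0 (without PBS replicate 1) to 938 (without DOX replicate 2) when 1 library was left out. For the interaction the numbers were 269 in DESeq2 and 0 to 58 (without DOX replicate 2) when 1 library was left out; it could not be fitted without PBS replicate 1. The cause of these shifts was not tested. None of the 10 IFT genes was called for batch or interaction under any setting. The deviations of same-numbered PBS and DOX libraries had correlations of 0.25, -0.05 and 0.24, against -0.33 to 0.18 for pairs with different numbers. The libraries numbered 1 share batch 1 and those numbered 3 share batch 2. Whether a number marks a pairing cannot be told from these values. The replicate block gave 0 genes called and 0.75 for Ttc30b. In batch 1 alone Ttc30a1 was at -0.94. Ift88 (64 to 171 counts) and Ttc30a2 (0 to 6 counts) are the subunits whose depth limits the values most.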
